A study of Mus musculus with 12 samples.

Results

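The quantity examined is a difference of 2 effects on gene expression in cultured mouse salivary glands: the change made by SU5402, a small molecule inhibitor of FGF receptor kinases, minus the change made by loss of the receptor isoform Fgfr2b from the epithelium. It was computed over the autosomal genes annotated as protein-coding, 20675 of the 52636 gene identifiers counted, with genes of chromosomes X and Y and processed pseudogenes left out. Enough counts for a test were present for 13256 of these genes. RNA of 12 libraries was sequenced after removal of ribosomal RNA, from glands dissected at embryonic stage E13.5 and kept for 2 days on membranes. Wild-type glands in medium with the solvent DMSO gave 3 libraries, and wild-type glands in SU5402 at 2.5 µM gave 3 libraries, named FGFRi here. The other 6 came from the K14Cre-Fgfr2b cross without treatment, from littermates labelled WT, HET or HOM for the genotype, 2 libraries of each. In this cross Cre under the keratin 14 promoter acts in epithelial cells. The inhibitor effect is FGFRi minus DMSO, the deletion effect is HOM minus the mean of WT and HET, and the difference is the first minus the second, all on the log2 scale. The 2 effects share no library, and the question put to them is what kinase inhibition in every cell of the gland changes that loss of the epithelial receptor does not, and the reverse.

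FGF10 and FGF7, made by the mesenchyme, bind the epithelial splice form FGFR2b and drive end bud growth and branching of the salivary gland through the ERK pathway, whose activity raises the ETS factors Etv4 and Etv5 and the feedback inhibitors of the Sprouty family. SU5402 blocks the kinase of FGF receptors in every cell type, mesenchyme included, and is known to act on VEGF receptors too. A deletion driven by keratin 14 leaves FGFR1 and the mesenchymal receptors intact.

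Library totals ran from 6043701 to 22322182 counts, of which 45.6% to 68.8% fell on the genes examined and 3.93% to 14.2% on mitochondrial genes. The lowest share of the genes examined and the highest mitochondrial share were in FGFRi 1. The highest share of the genes examined was in FGFRi 2. Levels are in CPM, counts per 1000000 of the library after TMM normalization. The TMM factors of FGFRi 1 and FGFRi 2, 0.767 and 1.23, were the lowest and highest of all libraries. Fgfr2 was counted as a whole gene, without its splice forms, and so does not check the deletion. It was at 89.2 and 94.4 CPM in HOM, 86.2 and 99.9 in HET and 101 and 99.2 in WT. It was 95.2, 90.0 and 99.98 CPM in DMSO and 80.6, 73.9 and 75.8 in FGFRi, below every other library. Levels of Xist and of Y-linked genes marked the 4 WT and HET libraries as male and both HOM libraries as female, so sex and genotype cannot be told apart in the deletion effect. In DMSO 1 library was male and 2 were female, and all FGFRi libraries were female. Summed levels of the pan-epithelial list were 1988 to 2256 CPM in DMSO, 1482 to 1653 in FGFRi, 2077 to 2167 in WT, 1821 to 1924 in HET and 1498 to 1586 in HOM. In such whole-gland RNA, fewer cells of a type and less RNA per cell cannot be told apart.

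The difference was called (adjusted p under 0.05 in edgeR's quasi-likelihood test) for 403 of 13256 genes (3.04%), 197 higher (1.49%) and 206 lower (1.55%). The inhibitor effect on its own was called for 3040 genes (22.9%), 1415 higher (10.7%) and 1625 lower (12.3%), and the deletion effect for 871 (6.57%), of which 512 were higher (3.86%) and 359 lower (2.71%). Of the 403 genes, 271 had a called inhibitor effect and no called deletion effect, 118 of them higher and 153 lower with the inhibitor. The reverse, a called deletion effect alone, held for 68 genes, 26 higher and 42 lower in HOM. Both effects were called with opposite signs for 27 genes, 21 of them lower with the inhibitor and higher in HOM, and with the same sign for 26, in all of which the inhibitor effect was the larger. In the other 11 neither effect was called by itself.

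A missed call does not show that an effect is absent. For 133 of the 153 genes lowered by the inhibitor alone, and for 61 of the 118 raised, the 95% interval of the deletion effect lay within a 1.5-fold change in either direction. Among the genes called in the deletion alone, the interval of the inhibitor effect lay within 1.5-fold for 26 of the 42 lower and 16 of the 26 higher genes. A stricter reading uses all 5 groups: in 133 of the 153 lowered genes all 3 FGFRi libraries were below the 9 others, against 9.54% of all genes tested, and in 86 of the 118 raised genes all 3 were above (5.81%). Both HOM libraries were below the 10 others in 37 of the 42 genes lower in the deletion alone (4.48% of all genes tested) and above them in 19 of the 26 higher genes (5.25%). These classes were made from the same fit, so the shares describe them and test nothing.

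Across the 13256 genes the 2 effects had a Pearson correlation of 0.39 and a Spearman correlation of 0.39, given over genes, which are not independent replicates, and on groups that differ in depth and composition. Of the 540 genes with both effects called, 513 (95%) moved in the same direction, and for 487 of those, 322 higher and 165 lower, no difference was called. Genes called in both experiments thus mostly moved the same way, and the text below turns to those whose effects differed.

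**Figure D1:**
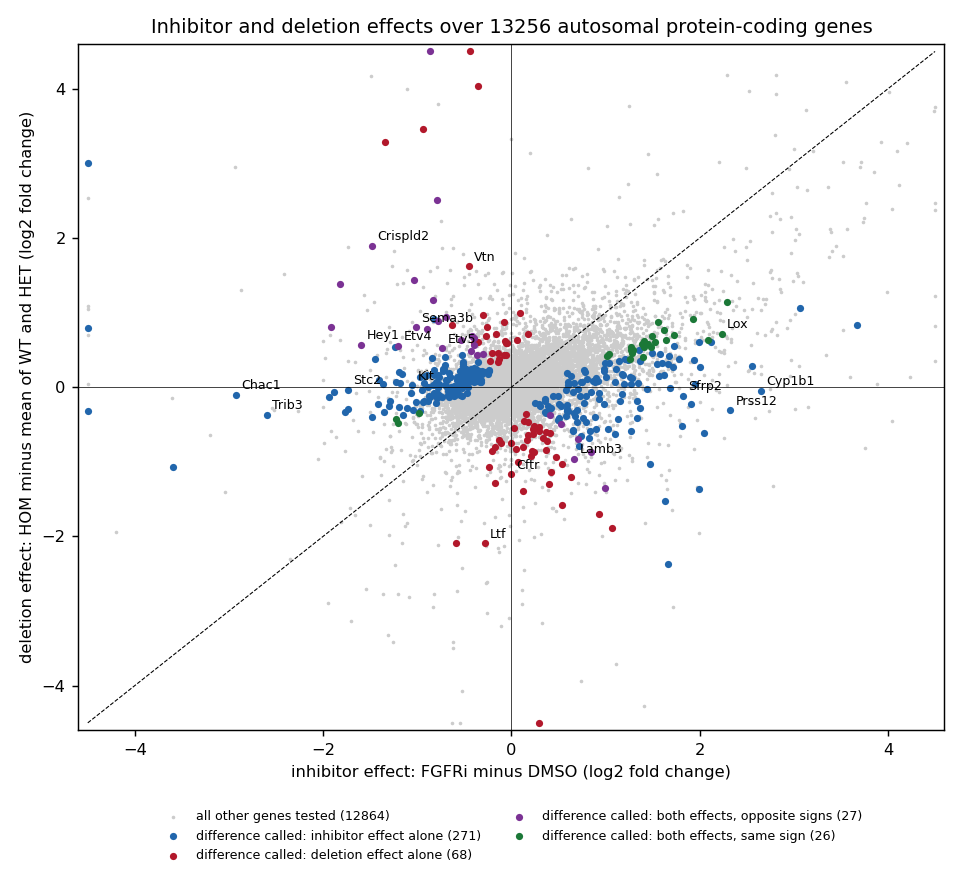
Each point is 1 of 13256 genes, with the inhibitor effect on the x axis and the deletion effect on the y axis, both log2 fold changes, and the dashed line marks equal effects. The 271 genes called with the inhibitor alone spread along the x axis and the 68 called with the deletion alone along the y axis, while 18 genes with an effect beyond 4.5 are drawn at the edge.

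Leaving out each of the 12 libraries in turn kept 62 of the 403 calls in every fit, 35 of 271 with the inhibitor effect alone, 6 of 68 with the deletion effect alone, 17 of 27 with opposite signs and 4 of 26 with the same sign. The fit without HOM 2, which leaves 1 HOM library whose spread is taken from the other groups, gave the fewest calls, 25 higher and 40 lower. Of the 70 named genes with a called difference 33 kept the call in all 12 fits. For the others the libraries, or the number of fits in which the call was lost, are given with the gene. Nr4a2, not described further, lost the call in 10 of 12 fits, and Wwc1 lost it without HOM 2. Against WT alone 14 of the 70 lost the call (Adamts5, Col1a1, Dcpp1, Fgf10, Hist1h3f, Hs3st3a1, Nr4a2, Pdgfb, Prrx1, Rspo3, Sars, Sfrp1, Slit3 and Spry2), and against HET alone 10 (Abcc9, Aqp5, Bpifa2, Cldn5, Dsc3, Ly6e, Nr4a2, Nrg1, Perp and Spry2). Genes outside that set are given with the number of the 12 fits that called them.

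Among FGF receptors, their ligands and the enzymes that modify their heparan sulfate co-receptors, 3 of 16 tested genes had a called difference, 18.8% against 3.04% of all genes tested. They were 1 higher and 2 lower, and the list had a median of -0.062 (0.29 with the inhibitor and 0.18 with the deletion), where the median difference over all genes tested was -0.010. Differences of the receptor genes Fgfr1, Fgfr2 and Fgfr3 were not called, at -0.32 ± 0.12 (adjusted p = 0.166), -0.24 ± 0.11 (adjusted p = 0.282) and 0.89 ± 0.31 (adjusted p = 0.153). Fgf10, the mesenchymal ligand of FGFR2b, was read at 79.8, 72.5 and 58.6 CPM in FGFRi and 20.7, 25.9 and 25.3 in DMSO, without overlap. It was 23.6 and 23.6 CPM in WT, 41.7 and 29.6 in HET, and in HOM 48.8 and 39.6, so that HET 1 lay between both HOM libraries. Fgf10 rose by 1.53 ± 0.15 with the inhibitor and by 0.60 ± 0.14 in HOM. The difference of its effects was 0.93 ± 0.21 (adjusted p = 0.0284), which was 0.63 (adjusted p = 0.192) against WT alone and was lost in 6 of 12 fits without 1 library (DMSO 1, FGFRi 1, FGFRi 2, WT 1, WT 2 or HOM 2). Fgf7 had a difference of -0.087 ± 0.35 (adjusted p = 0.938).

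Hs3st3b1 and Hs3st3a1 encode 3-O-sulfotransferases that modify heparan sulfate. Hs3st3b1 was at 45.5, 56.4 and 68.0 CPM in FGFRi and 88.7 to 111 in the 9 other libraries. Its effects differed by -0.98 ± 0.16 (adjusted p = 0.00431) with a deletion effect of 0.16 ± 0.11. Hs3st3a1 was scarcer, 2.39, 2.48 and 2.32 CPM in FGFRi, 3.66, 7.08 and 4.76 in DMSO and 7.397 to 9.68 in the cross. This gave a difference of -1.40 ± 0.31 (adjusted p = 0.0267), a call lost in 8 of 12 fits without 1 library. Their relative Hs3st1 went the other way in HOM, at 29.4 and 31.3 CPM against 19.6, 15.7, 20.6 and 18.5 in the 4 controls and 12.1 to 16.7 in the 6 wild-type libraries of the inhibitor experiment. It rose by 0.71 ± 0.10 with the deletion and changed by -0.17 ± 0.12 (adjusted p = 0.350) with the inhibitor, and its difference of -0.87 ± 0.16 was lost without HOM 2 (adjusted p = 0.0770).

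Of 30 tested targets and feedback inhibitors of FGF and ERK signalling, 16 fell and 0 rose with the inhibitor (12.3% and 10.7% of all genes). With the deletion 1 fell and 3 rose (2.71% and 3.86%). In the difference 9 were lower and 0 higher, or 30% called against 3.04% of all genes tested. The medians were -0.40 for the difference, -0.41 for the inhibitor and -0.0098 for the deletion, the inhibitor's median turning to 0.024 and the deletion's to 0.36 under a scaling by epithelial genes. In 14 of the 30 all FGFRi libraries were below the 9 others, against 9.54% of all genes tested. In 5 both HOM libraries were above the 10 others (5.25% of all genes tested). Summed over the list, levels were 1197 to 1371 CPM in FGFRi and 1798 to 2028 in the other groups.

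Etv4, an ETS transcription factor that FGF signalling induces, had 42.2, 36.5 and 36.9 CPM in DMSO and 15.4, 18.9 and 15.6 in FGFRi. In the cross it had 25.1 and 27.8 CPM in WT, 26.1 and 24.8 in HET, and in HOM 35.4 and 40.6. The HOM libraries were thus above their 4 littermate controls but within or next to the range of DMSO, while FGFRi was below all others. Its effects were -1.21 ± 0.11 with the inhibitor and 0.56 ± 0.10 with the deletion, and the difference was -1.76 ± 0.15 (adjusted p = 1.30e-05). Etv5, a close relative with overlapping function, had 192, 157 and 149.9 CPM in DMSO, 90.8, 112 and 96.1 in FGFRi, 155, 159, 159.5 and 138 in the 4 controls and 214 and 226 in HOM, here with both HOM libraries above the 10 others. Its difference was -1.26 ± 0.14 (adjusted p = 2.00e-04), from -0.73 with the inhibitor and 0.52 with the deletion. The differences of both genes kept their call in all 12 fits without 1 library, whereas their rises in HOM were lost without HOM 2 (adjusted p = 0.147 for Etv4 and 0.132 for Etv5).

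Spry4, a Sprouty feedback inhibitor, had 14.5, 16.2 and 13.46 CPM in DMSO and 11.4, 10.6 and 11.95 in FGFRi, and 15.1 and 15.6 in WT, 24.8 and 22.4 in HET, and in HOM 29.7 and 26.7. The HET libraries lay between WT and HOM, and the difference of -0.96 ± 0.15 (adjusted p = 0.00321) was -1.27 against WT alone and -0.65 (adjusted p = 0.0411) against HET alone. Its fall with the inhibitor, -0.40, was lost when DMSO 2, FGFRi 1 or FGFRi 2 was left out (highest adjusted p = 0.158) and turned to 0.046 under epithelial scaling. Spry2 differed by -0.52 ± 0.13 (adjusted p = 0.0495), a call lost in 10 of 12 fits without 1 library, and Spry1 and the ERK phosphatase gene Dusp6 by -0.40 ± 0.12 (adjusted p = 0.0824) and -0.40 ± 0.15 (adjusted p = 0.180). The inhibitor effects of Spry1, Spry2 and Dusp6, -0.38, -0.31 and -0.42, turned to 0.065, 0.12 and 0.020 under epithelial scaling.

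Epha2, an ephrin receptor gene, was at 25.9, 33.4 and 30.9 CPM in FGFRi and 43.6 to 63.7 elsewhere. The inhibitor effect minus the deletion effect was -1.05 ± 0.15 (adjusted p = 0.00222), with a deletion effect of 0.16 ± 0.11 (adjusted p = 0.467). Shisa2, which retains FGF and Wnt receptors inside the cell, was at 41.3, 48.1 and 58.0 CPM in FGFRi and 67.9 to 100.4 elsewhere. Its difference was -0.88 ± 0.16 (adjusted p = 0.00893), a call lost without HOM 2 (adjusted p = 0.0545). The cyclin gene Ccnd1 and the immediate early genes Egr1 and Ier2 were also lower in the difference, at -0.74 ± 0.16, -1.11 ± 0.22 and -0.51 ± 0.13, called in 9, 9 and 2 of 12 fits without 1 library. Etv1, of the same ETS subfamily as Etv4 and Etv5, fell in both experiments, with effects of -1.28 ± 0.15 and -0.80 ± 0.15, from 54.4, 63.7, 57.9 and 68.8 CPM in the 4 controls to 38.2 and 32.4 in HOM, and its difference was -0.49 ± 0.21 (adjusted p = 0.252). The fall in HOM was lost without HOM 2 (adjusted p = 0.171).

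**Figure D2:**
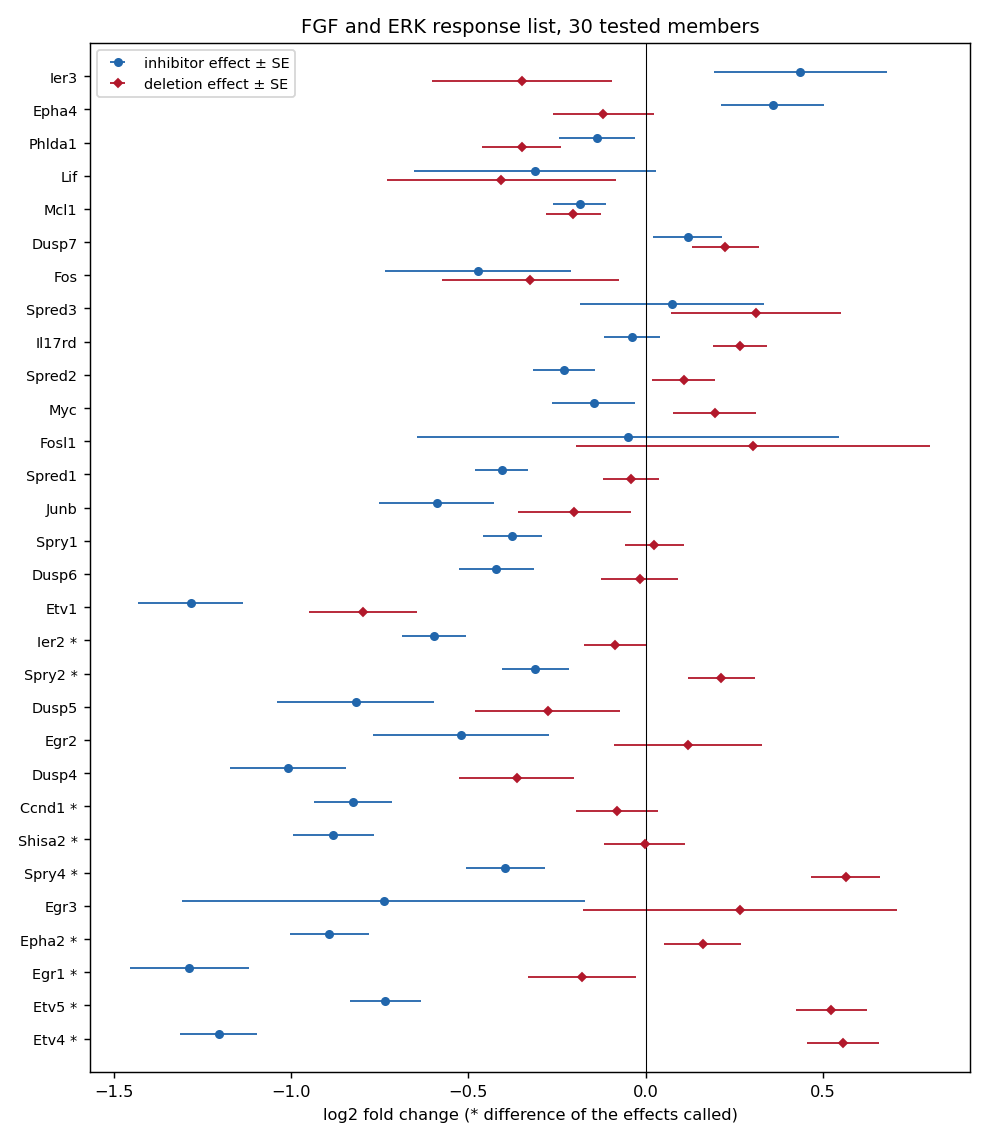
Log2 fold changes of the 30 tested FGF and ERK response genes, circles for the inhibitor and diamonds for the deletion, with their SE, sorted by the difference. The 9 genes with an asterisk have a called difference, and in Etv4, Etv5 and Spry4 both effects were called, on opposite sides of 0.

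Among 19 tested markers of the end buds, the distal tips from which acini form, 5 were lower and 0 higher in the difference (median -0.79), or 26.3% called against 3.04% of all genes tested. Of the 19, 13 fell with the inhibitor (median -1.27) and 5 with the deletion (median -0.43), and none rose in either. Among all genes tested 12.3% and 2.71% fell. The medians of the pan-epithelial list were -0.40 and -0.36, and under epithelial scaling those of the end bud list were -0.79 and -0.060. Kit, the receptor that marks acinar progenitors, was at 44.0, 57.0 and 56.3 CPM in FGFRi and 114, 118 and 96.7 in DMSO, against 74.7 and 78.2 in WT, 76.5 and 78.4 in HET, and in HOM 77.2 and 79.0. All 6 libraries of the cross lay within 5 CPM of each other, above FGFRi and below DMSO. Here the difference was -1.08 ± 0.14 (adjusted p = 5.60e-04), from -1.06 ± 0.097 with the inhibitor and 0.022 ± 0.098 with the deletion.

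Sox10, a transcription factor that specifies acinar progenitors, was at 85.9, 109 and 112 CPM in FGFRi and 145 to 205 in the other libraries, and was at 181 and 205 in HOM. Its difference of -0.79 ± 0.15 (adjusted p = 0.00969) was lost without HOM 2 (adjusted p = 0.104). The secretory genes Aqp5, Bpifa2 and Dcpp1 differed by -1.07 ± 0.26, -2.53 ± 0.57 and -1.43 ± 0.31 (adjusted p = 0.0440, 0.0294 and 0.0264), each lost in 6 to 10 of 12 fits without 1 library. Their controls also differed between experiments: Dcpp1, which shares sequence with its paralogs, had 14.8, 14.6 and 18.1 CPM in DMSO and 54.2, 69.9, 51.5 and 39.7 in WT and HET, and Bpifa2 had 51.3, 125 and 41.4 and 9.89, 11.9, 44.1 and 23.1. Sox9, a factor of the distal epithelium upstream of Sox10, fell by 0.36 ± 0.092 in HOM and changed by -0.21 ± 0.087 (adjusted p = 0.108) with the inhibitor, its difference being 0.16 ± 0.13 (adjusted p = 0.582); its change in HOM turned to 0.0058 under epithelial scaling and its call was lost in 5 of 12 fits without 1 library.

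Among the 34 gene lists the most called differences were found for ATF4, the transcription factor of the amino acid and integrated stress responses, with its targets. Of 33 tested genes 16 were lower and 1 was higher in the difference, against 1.55% and 1.49% of all genes. With the inhibitor 27 fell and 2 rose, and with the deletion 1 fell and 1 rose (12.3%, 10.7%, 2.71% and 3.86% of all genes). The medians of the list were -0.58 for the difference, -0.67 for the inhibitor and -0.097 for the deletion. In 21 of the 33 all FGFRi libraries were below the 9 others, against 9.54% of all genes tested. Scaling to epithelial genes kept the sign of the first 2 medians (-0.51 and -0.23) and moved that of the deletion to 0.27.

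Chac1, which degrades glutathione, had 15.9, 17.2 and 10.02 CPM in DMSO and 1.47, 1.51 and 2.38 in FGFRi. In the cross it had 4.98 and 4.54 CPM in WT, 6.06 and 5.87 in HET, and in HOM 4.48 and 5.38. DMSO was therefore the highest of the 5 groups and FGFRi the lowest, and the 3 genotypes lay between them. The difference was -2.83 ± 0.33 (adjusted p = 2.74e-04), from -2.93 ± 0.24 with the inhibitor and -0.10 ± 0.22 with the deletion. Trib3, a pseudokinase that restrains ATF4, followed the same order, with 14.2, 13.8 and 9.69 CPM in DMSO, 2.02, 1.84 and 2.27 in FGFRi, 4.17, 3.35, 6.21 and 5.71 in the 4 controls and 3.999 and 3.43 in HOM. The difference of its effects was -2.23 ± 0.29 (adjusted p = 7.47e-04).

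Stc2, a secreted glycoprotein induced by stress of the endoplasmic reticulum, was at 5.14, 5.18 and 5.75 CPM in FGFRi, 18.8, 16.6 and 19.5 in DMSO, 10.5 and 11.3 in WT, 16.4 and 15.6 in HET, and in HOM 12.4 and 13.3, with a difference of -1.70 ± 0.17 (adjusted p = 5.48e-05). Enzymes of mitochondrial one-carbon and serine metabolism were lower too. Aldh1l2, which oxidizes 10-formyltetrahydrofolate, was at 7.71, 5.83 and 8.47 CPM in FGFRi, 32.3, 26.6 and 27.7 in DMSO and 16.3 to 22.03 in the cross. Its effects differed by -1.81 ± 0.19 (adjusted p = 1.13e-04). Shmt2, Mthfd2, Phgdh and Psph, which act in the same pathways, differed by -0.78 ± 0.13, -0.83 ± 0.16, -0.57 ± 0.12 and -0.71 ± 0.17, called in 11, 10, 9 and 3 of 12 fits without 1 library. Amino acid transporter genes of the list were lower as well, Slc7a5 at -0.91 ± 0.14, its heavy chain Slc3a2 at -0.58 ± 0.10 and Slc7a1 at -0.53 ± 0.12 (called in 12, 11 and 5 of 12 fits). Atf5, a transcription factor downstream of ATF4, differed by -0.87 ± 0.11 (adjusted p = 6.61e-04), whereas Atf4 itself fell by 0.38 ± 0.069 with the inhibitor and had a difference that was not called, -0.39 ± 0.099 (adjusted p = 0.0514). The 1 member that was higher was Sesn3, a FoxO target, at 250.3, 247 and 229 CPM in FGFRi and 131 to 193 elsewhere (difference 0.54 ± 0.12, called in 6 of 12 fits).

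Asns, asparagine synthetase, was lower in both experiments and more so with the inhibitor: 24.2, 27.8 and 31.9 CPM in FGFRi, 75.0, 64.3 and 61.1 in DMSO, 49.95, 53.5, 59.6 and 54.5 in the 4 controls and 41.4 and 39.8 in HOM. This gave a difference of -0.81 ± 0.15 (adjusted p = 0.00855), a call lost without HOM 2 (adjusted p = 0.0591). Its fall in HOM itself was lost in 5 of 12 fits without 1 library. Of the ATF4 targets, Chac1, Trib3, Stc2, Aldh1l2, Atf5 and Slc7a5 kept a called difference in all 12 fits without 1 library. The controls of the 2 experiments were not at 1 level: for Chac1, Trib3, Stc2, Aldh1l2 and Asns all DMSO libraries were above all WT and HET libraries, and the part of this offset in the differences was not tested.

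**Figure D3:**
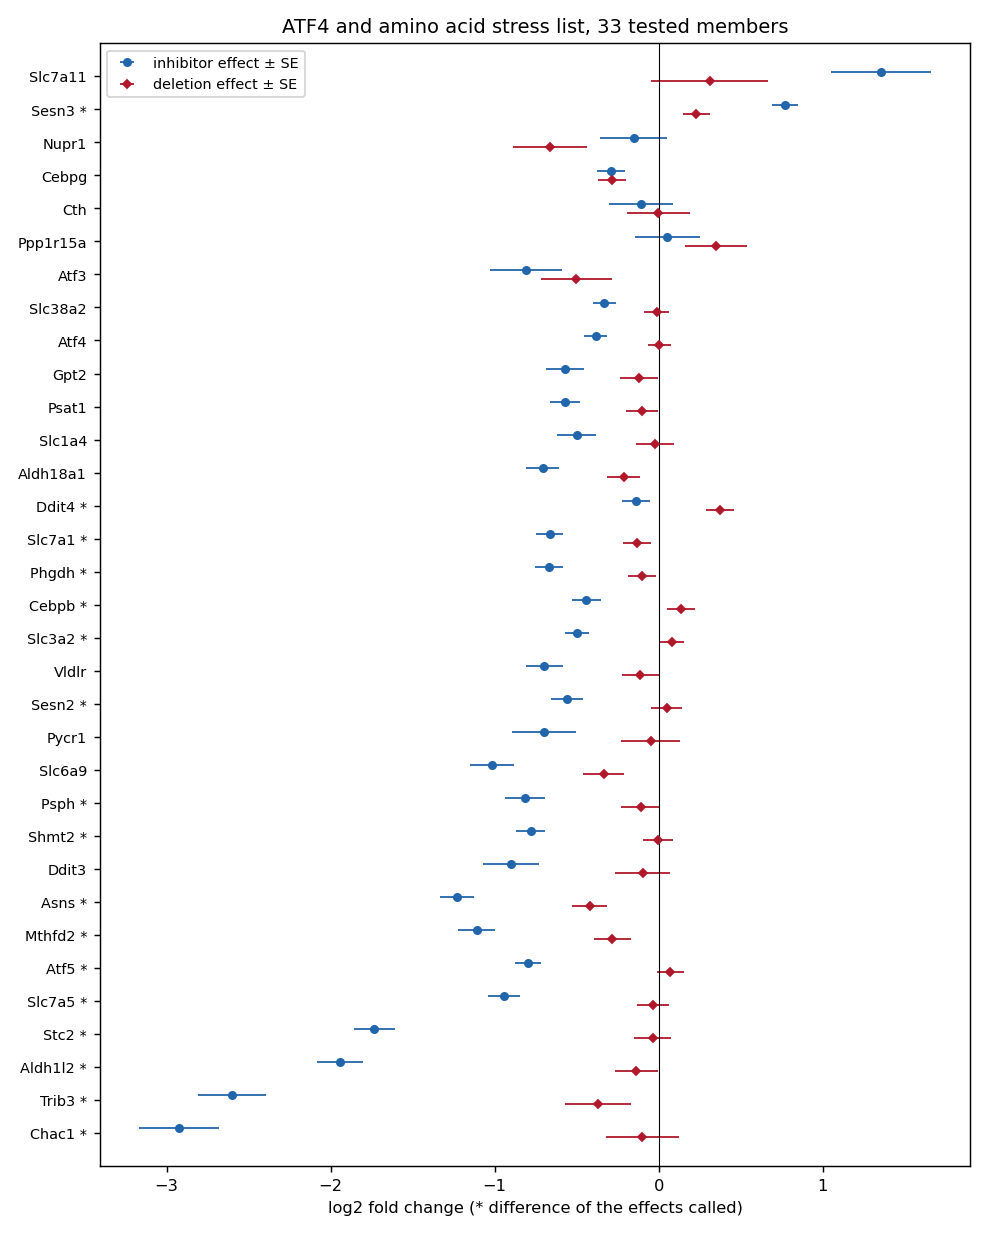
Log2 fold changes of the 33 tested genes of the ATF4 and amino acid stress list, circles for the inhibitor and diamonds for the deletion, with their SE, sorted by the difference. At the bottom stand Chac1, Trib3, Aldh1l2 and Stc2, with inhibitor effects from -2.93 to -1.73 and deletion effects from -0.37 to -0.036.

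ATF4 binds composite sites that join a C/EBP and an ATF element, and the letters TGATGNAA, N standing for any base, were searched on both strands of the RefSeq promoters (GRCm38.p6), windows of 250 bases before and 50 after the start. They were found for 10 of the 31 list members with a promoter in the table (32.3%) and for 1219 of all 27025 genes (4.51%). Among the 16 members lower in the difference, 14 had a promoter and 3 held the letters: Asns, Chac1 and Trib3. The 250 bases before the start of Chac1 (chr2:119350992-119351241, plus strand) and Asns (chr6:7693210-7693459, minus strand) are printed because they show the 2 orientations, with the match in capitals, 193 to 186 bases before the start in Chac1, where it reads as the reverse complement, and 23 to 16 bases before it in Asns.
Chac1: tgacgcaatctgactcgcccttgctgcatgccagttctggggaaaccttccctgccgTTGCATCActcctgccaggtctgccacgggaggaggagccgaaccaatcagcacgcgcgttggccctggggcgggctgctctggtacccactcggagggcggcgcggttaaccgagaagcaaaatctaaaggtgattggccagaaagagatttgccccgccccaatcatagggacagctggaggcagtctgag
Asns: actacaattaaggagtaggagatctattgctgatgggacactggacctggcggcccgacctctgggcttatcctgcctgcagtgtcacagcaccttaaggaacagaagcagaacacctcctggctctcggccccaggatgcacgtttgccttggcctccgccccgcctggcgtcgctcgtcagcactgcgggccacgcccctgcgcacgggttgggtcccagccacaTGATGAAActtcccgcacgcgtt
In Trib3 the match lies after the start. A match describes these windows and shows no binding, and in Stc2 the letters are not in the window.

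In 6 biosynthetic, cell cycle and metabolic lists more genes fell with the inhibitor than with the deletion, as among all genes tested, where 12.3% and 2.71% fell. Called differences, 3.04% of all genes tested, made up 5.26% of the synthetase list, 0% of the unfolded protein response and mitosis lists, 4.76% of the cholesterol list, 6.90% of the S phase list and 9.09% of the hypoxia and glycolysis list. Of 19 aminoacyl-tRNA synthetase genes, 14 fell with the inhibitor and 2 with the deletion, none rose, and 1, Sars, was lower in the difference, at -0.49 ± 0.12 (adjusted p = 0.0426), a call lost in 9 of 12 fits without 1 library. Mars, spelled differently in the list and so outside these counts, differed by -0.49 ± 0.12 (called in 3 of 12 fits). In 11 of the 19 all FGFRi libraries were below the 9 others, against 9.54% of all genes tested. Of 20 genes of the unfolded protein response, 9 fell with the inhibitor and 2 with the deletion, with 0 called lower in the difference. Of 21 genes of cholesterol synthesis, 12 fell with the inhibitor and 2 with the deletion, with 1 called lower in the difference. S phase genes fell in 17 of 29 with the inhibitor and in 0 with the deletion, with Mcm5 and Ung lower in the difference at -0.42 ± 0.10 and -0.75 ± 0.15 (called in 3 and 11 of 12 fits). Mitosis genes fell in 15 of 28 and in 1, with 0 called in the difference. Hypoxia and glycolysis genes fell in 12 of 22 and rose in 2 with the inhibitor, and 1 rose and 1 fell with the deletion, Aldoc and Pfkl being lower in the difference at -0.75 ± 0.17 and -0.64 ± 0.15 (called in 6 and 4 of 12 fits). The inhibitor medians of these 6 lists, -0.41, -0.27, -0.31, -0.29, -0.27 and -0.29, turned to 0.025, 0.17, 0.13, 0.14, 0.16 and 0.15 under epithelial scaling. The medians of their differences, -0.25, -0.11, -0.25, -0.29, -0.11 and -0.28, kept their sign but shrank to -0.19, -0.039, -0.17, -0.22, -0.040 and -0.19. Those of the unfolded protein response and mitosis lists were thus close to 0.

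Among genes with a called rise with the inhibitor and no called deletion effect, Cyp1b1, a cytochrome P450 induced by the aryl hydrocarbon receptor (AHR), had the smallest p. It was read at 42.6, 43.6 and 37.4 CPM in FGFRi and 5.57 to 14.01 in the 9 other libraries, with HOM at 10.8 and 11.1. The inhibitor effect minus the deletion effect was 2.70 ± 0.22 (adjusted p = 1.30e-05). Aldh3a1, an aldehyde dehydrogenase of the same battery, was at 23.7, 23.5 and 16.2 CPM in FGFRi, 8.12, 11.1 and 10.7 in DMSO, 11.4, 11.1, 11.1 and 11.1 in the 4 controls and 7.12 and 7.90 in HOM. Its difference was 1.59 ± 0.23 (adjusted p = 0.00204). Of 7 tested genes of the battery 5 rose with the inhibitor and 0 had a called deletion effect (10.7% and 6.57% of all genes), with a median difference of 1.04. A missed call does not show absence of change, and in 1 gene both HOM libraries were below the 10 others. In the difference 2 were called, 28.6% against 3.04% of all genes tested. Ahrr, the repressor of the receptor, and Nqo1 rose by 2.70 ± 0.45 and 1.19 ± 0.28 with the inhibitor, but their differences were not called, 1.53 ± 0.65 (adjusted p = 0.243) and 1.04 ± 0.39 (adjusted p = 0.176). In 5 of the 7 all FGFRi libraries were above the 9 others, against 5.81% of all genes tested.

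Wnt targets and modulators rose with the inhibitor in 14 of 24 and fell in 1, and rose with the deletion in 2 and fell in 0 (10.7%, 12.3%, 3.86% and 2.71% of all genes). In the difference 5 were higher and 1 lower (median 0.60), or 25% called against 3.04% of all genes tested. Sfrp2, a secreted Wnt modulator, was at 83.7, 67.7 and 59.6 CPM in FGFRi, 19.4, 17.9 and 22.7 in DMSO, 32.7, 27.7, 44.9 and 43.2 in the 4 controls and 31.7 and 35.5 in HOM. Here the difference was 1.94 ± 0.18 (adjusted p = 4.24e-05). Lgr6, a receptor of R-spondins, was at 25.9, 29.9 and 22.3 CPM in FGFRi and 6.21 to 15.5 elsewhere, a difference of 1.75 ± 0.27 (adjusted p = 0.00291). Axin2, a feedback target of Wnt signalling, was at 44.4, 36.8 and 29.6 CPM in FGFRi and 8.44 to 19.5 elsewhere. The difference of its effects was 1.46 ± 0.25 (adjusted p = 0.00680), a call lost without HOM 2 (adjusted p = 0.0545). Rspo3, a Wnt agonist, and Sfrp4 were higher by 1.25 ± 0.27 and 2.002 ± 0.50, lost in 7 and 10 of 12 fits without 1 library. The 1 lower member was Sfrp1, at -0.72 ± 0.16, lost in 5 of 12.

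Fat4, an atypical cadherin, was at 202, 192 and 139 CPM in FGFRi and 51.1 to 116 elsewhere. Its effects differed by 1.45 ± 0.18 (adjusted p = 4.99e-04), 1.11 against WT alone and 1.79 against HET alone. Prss12, the serine protease neurotrypsin, was at 22.9, 18.1 and 13.502 CPM in FGFRi and 2.40 to 4.90 elsewhere, a difference of 2.63 ± 0.33 (adjusted p = 5.41e-04). Adamtsl1, a secreted relative of matrix proteases, was at 9.72, 8.42 and 7.91 and 1.72 to 5.95 CPM, with 2.13 ± 0.32 (adjusted p = 0.00265). These genes, Cyp1b1, Aldh3a1, Sfrp2 and Lgr6 kept the call in all 12 fits without 1 library.

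**Figure D4:**
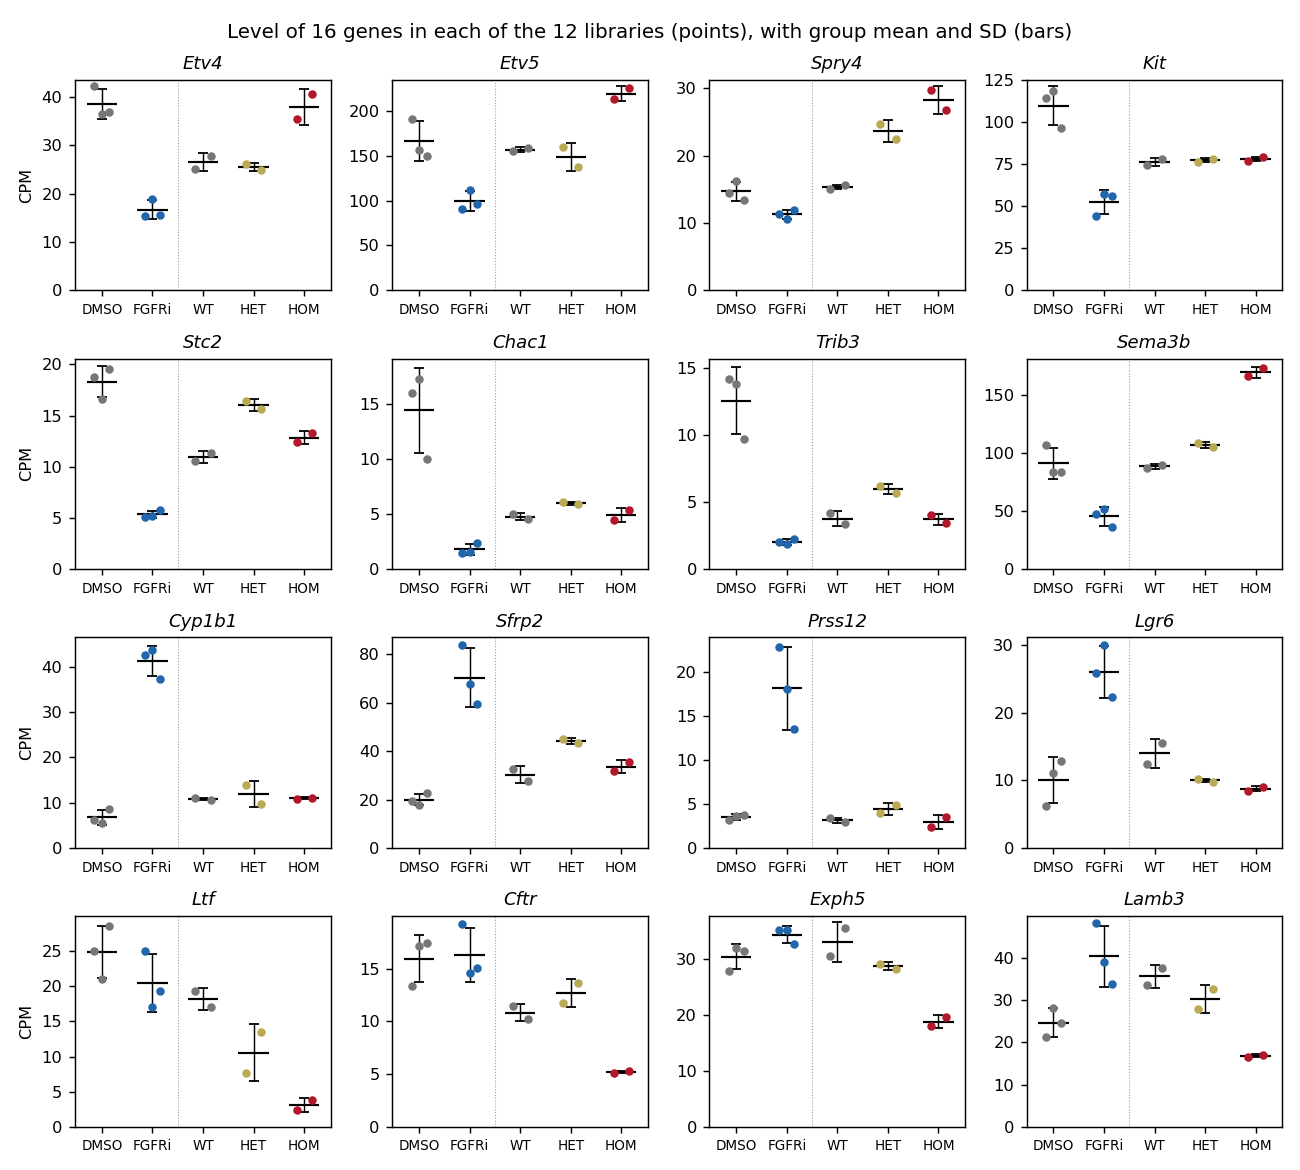
Levels in CPM (y axis, from 0) of 16 genes in the 5 groups (x axis), with a point per library and the mean and SD as bars. FGFRi lies below the other groups in the first 8 genes and above them in Cyp1b1, Sfrp2, Prss12 and Lgr6, and HOM lies below the other groups in Ltf, Cftr, Exph5 and Lamb3.

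Of 22 tested mesenchymal genes 20 rose with the inhibitor and 13 with the deletion (10.7% and 3.86% of all genes tested), and 0 fell. In the difference 2, Col1a1 and Prrx1, were higher (9.09% called against 3.04% of all genes tested). Summed levels were 3035 to 3129.6 CPM in DMSO, 4768 to 6533 in FGFRi, 3207 to 3404 in WT, 4636 to 5075 in HET and 5169 to 5438 in HOM, so that HET was nearer to HOM than to WT, and the part of this shift in the results was not tested. Of 10 transcription factors and other genes of mesenchymal transition 9 rose with the inhibitor and 6 with the deletion. Zeb2 and Prrx1 were higher in the difference (20% of the list), Zeb2 at 0.69 ± 0.17, called in 3 of 12 fits. Prrx1, a mesenchymal homeobox gene, was at 148, 110.1 and 106 CPM in FGFRi, 47.9, 47.2 and 54.7 in DMSO, 65.0 and 67.0 in WT, 102 and 90.0 in HET, and in HOM 114 and 104. Its difference of 0.83 ± 0.16 (adjusted p = 0.0138) was lost without HOM 2 (adjusted p = 0.128) and was 0.56 (adjusted p = 0.132) against WT alone. Col1a1, collagen I, was higher by 0.79 ± 0.17 (adjusted p = 0.0262), a call lost in 5 of 12 fits without 1 library.

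The genes with the smallest p among those raised in both, and more with the inhibitor, were Lox, Slit3 and Adamts5. Lox, which cross-links collagen, was at 84.4, 61.2 and 60.0 CPM in FGFRi, 13.1, 15.9 and 13.3 in DMSO, 12.3 and 16.9 in WT, 26.9 and 21.1 in HET, and in HOM 33.99 and 27.6. This gave a difference of 1.52 ± 0.23 (adjusted p = 0.00293). Slit3, a guidance ligand, differed by 0.99 ± 0.16 (adjusted p = 0.00369) and Adamts5, an aggrecanase, by 0.89 ± 0.14 (adjusted p = 0.00397). Those 2 differences were 0.62 (adjusted p = 0.0841) and 0.58 (adjusted p = 0.0756) against WT alone, and all 3 genes kept the call of the difference in the 12 fits without 1 library, although their rises in HOM were lost in 4 to 6 of them. Levels of Slit3 in HET, 47.7 and 46.6 CPM, lay beside those in HOM, 45.6 and 50.9, and above WT, 28.1 and 28.3.

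Skeletal muscle lists had 0 called differences. Of 25 sarcomere genes 24 rose with the inhibitor (median 3.40) and 10 with the deletion (median 2.12). The deletion median was 2.08 with genes at 0 in a group set at 3 counts over that whole group. Of 13 myogenic regulators 10 rose and 2 fell with the inhibitor, and 8 rose and 0 fell with the deletion. In the sarcomere list the summed level was 39.0 to 117 CPM in DMSO, 245 to 1047 in FGFRi, 21.0 to 28.9 in WT, 142 to 260.3 in HET and 267 to 295 in HOM. Schwann and glial genes rose in 6 of 12 and fell in 1 with the inhibitor and rose in 5 with the deletion, and neuronal genes rose in 5 and 2 of 19, with 0 called in the difference in either list. Smooth muscle genes rose in 1 and fell in 4 of 10 with the inhibitor and rose in 1 and fell in 2 with the deletion, again with 0 called in the difference. Endothelial genes, whose VEGF receptors SU5402 can also inhibit, were scarce, 22.4 to 26.9 CPM summed in DMSO, 23.7 to 29.3 in FGFRi, 22.997 to 24.5 in WT, 32.9 to 58.0 in HET and 44.1 to 48.7 in HOM, so that HET spanned the HOM range, and 1 of 19 was lower in the difference: the tight-junction gene Cldn5, with 0 counts in all FGFRi libraries and 0.318 to 1.70 CPM elsewhere, a call lost in 11 of 12 fits without 1 library. Of 19 endothelial genes 1 rose and 1 fell with the inhibitor, and 0 deletion effects were called. Called differences made up 5.26% of the endothelial list, against 3.04% of all genes tested. For all lists of this paragraph, the shares of all genes were 10.7% higher and 12.3% lower with the inhibitor. With the deletion they were 3.86% and 2.71%.

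The reverse direction is described first for markers of ducts, the proximal tubes of the gland. Of those with a called difference, 4 had the deletion effect alone called, with Hs3st1 raised in HOM. Another 4 had the inhibitor effect alone called. Of 23 tested duct genes 10 fell and 1 rose with the deletion, and 7 fell and 6 rose with the inhibitor (2.71%, 3.86%, 12.3% and 10.7% of all genes). The medians were -0.60 and -0.0050 and the median difference 0.66, with 7 genes higher and 2 lower. Called differences made up 39.1% of the list, against 3.04% of all genes tested. Under epithelial scaling the medians were -0.23 with the deletion and 0.44 with the inhibitor, and the median difference was 0.75. The pan-epithelial medians without that scaling were -0.36 and -0.40. In 12 of the 23 both HOM libraries were below the 10 others, against 4.48% of all genes tested. Summed levels were 2975 to 2979 CPM in WT, 2655 to 2832 in HET, 1917 in both HOM libraries, 2955 to 3700.3 in DMSO and 3120.4 to 3875 in FGFRi.

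Ltf, lactoferrin, an antimicrobial protein of secretions, was at 2.40 and 3.81 CPM in HOM, 19.3 and 17.1 in WT and 7.65 and 13.4 in HET. With the inhibitor it was at 25.0, 17.1 and 19.4 CPM, overlapping 25.0, 21.1 and 28.6 in DMSO. Its deletion effect was -2.09 ± 0.25 and its inhibitor effect -0.28 ± 0.19 (adjusted p = 0.332), a difference of 1.81 ± 0.31 (adjusted p = 0.00702). Cftr, the chloride channel of ducts, was at 5.12 and 5.30 CPM in HOM, 11.4, 10.3, 11.7 and 13.7 in the 4 controls, 19.3, 14.6 and 15.1 in FGFRi and 13.4, 17.1 and 17.4 in DMSO, with a deletion effect of -1.17 ± 0.16 and an inhibitor effect of -0.0050 ± 0.14. The difference for Cftr, 1.16 ± 0.21 (adjusted p = 0.00797), was lost without HOM 2 (adjusted p = 0.0725), and that for Ltf was kept in all 12 fits without 1 library.

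Exph5, an effector of the vesicle GTPase RAB27, was at 17.996 and 19.7 CPM in HOM, 30.5, 35.7, 29.2 and 28.2 in the 4 controls and 27.9 to 35.3 in the inhibitor experiment, and Casz1, a zinc finger transcription factor, was at 28.7 and 33.0, 49.1, 48.0, 40.4 and 48.6 and 35.1 to 54.1. Their differences were 0.87 ± 0.14 (adjusted p = 0.00350) and 0.88 ± 0.15 (adjusted p = 0.00707), kept in all 12 fits, although the fall of Casz1 in HOM itself was lost without HOM 1 (adjusted p = 0.0763). Wfdc18, a whey acidic protein family member, Btc, the EGF receptor ligand betacellulin, and Ly6e, a GPI-anchored membrane protein, differed by 1.56 ± 0.28 (adjusted p = 0.00797), 1.51 ± 0.30 (adjusted p = 0.0153) and 1.11 ± 0.19 (adjusted p = 0.00674), each lost without HOM 2 (adjusted p = 0.112, 0.145 and 0.0728). Ly6e was at 145 and 174 CPM in WT, 85.0 and 67.5 in HET, and in HOM 61.5 and 59.0, and its difference was 0.58 (adjusted p = 0.141) against HET alone.

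Other duct genes split between the experiments in another way. Tfcp2l1, a transcription factor of ducts, was at 1708, 1220.1 and 983 CPM in FGFRi, 490.2, 894 and 804 in DMSO, 719, 704, 692 and 665 in the 4 controls and 462 and 466 in HOM. The inhibitor effect minus the deletion effect was 1.42 ± 0.29 (adjusted p = 0.0188), a call lost without HOM 1 or HOM 2 (adjusted p = 0.0719 and 0.133). With the sex covariate it was 1.13 (adjusted p = 0.0807), not called. The ductal keratins Krt19 and Krt7 differed by 1.22 ± 0.28 (adjusted p = 0.0353) and 1.40 ± 0.31 (adjusted p = 0.0277), called in 5 and 8 of 12 fits without 1 library. Kcnn4, a calcium-activated potassium channel, had a called fall with the inhibitor and no called deletion effect. It was at 32.1, 40.1 and 54.3 CPM in FGFRi and 157, 153 and 121 in DMSO. In the 4 controls it was at 109, 119.6, 125 and 125 CPM, and both HOM libraries, 97.3 and 98.0, were below each of them. Its difference was -1.44 ± 0.20 (adjusted p = 0.00104) and was kept in all 12 fits.

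Called higher in HOM, with no called inhibitor effect, were Abcc9, a subunit of ATP-sensitive potassium channels, Gucy1b1, a subunit of the nitric oxide receptor, Prex1, an activator of Rac, and Vtn, vitronectin. Abcc9 was at 35.6 and 30.9 CPM in HOM, 25.1 and 25.4 in HET, 12.9 and 12.9 in WT and 11.2 to 14.7 in the inhibitor experiment. Its difference of -0.95 ± 0.16 (adjusted p = 0.00494) was thus -1.44 against WT alone and -0.47 (adjusted p = 0.146) against HET alone. Gucy1b1 was at 15.7 and 13.3 CPM in HOM, 11.1 and 11.02 in HET and 8.20 and 8.11 in WT, and differed by -0.96 ± 0.17 (adjusted p = 0.00797). Its rise in HOM, 0.60, was smaller than this difference and lost its call without HOM 1. Prex1 and Vtn differed by -0.95 ± 0.18 (adjusted p = 0.00999) and -2.08 ± 0.39 (adjusted p = 0.0109). Their rises in HOM, 0.69 and 1.62, were smaller than these differences. Both the differences and the rises lost their call without HOM 2. Vtn was at 9.12 and 9.64 CPM in HOM and 1.47 to 4.69 elsewhere. Histone gene Hist1h3f, 1 of many near-identical copies, was at 0.757 and 0.643 CPM in HET and 55.5 and 59.1 in WT. In HOM it was at 107 and 102 CPM. Its value thus depends on which littermates serve as controls, and its called difference was lost without HOM 2.

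Sex could not be separated from genotype for any of these genes. With the sex of the library as a covariate, which only the DMSO libraries can inform, the deletion effect was called for 32 genes, 2 of the 68 genes of the deletion class stayed in it, and the share of higher calls in the difference went from 48.9% to 69.4%. The differences of Ltf, Cftr, Exph5, Casz1 and Abcc9 were 2.01, 1.07, 0.80, 0.86 and -1.12 in that fit (adjusted p = 0.00368, 0.0227, 0.0140, 0.0215 and 0.00140). Of the 70 named genes with a called difference, 14 lost it in that fit, namely Aqp5, Cldn5, Col1a1, Dcpp1, Fgf10, Notch1, Nr4a2, Nrg1, Nrg2, Perp, Sars, Sfrp1, Spry2 and Tfcp2l1.

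Called differences made up 0% of the pan-epithelial and stratified lists, 7.14% of tight-junction, 6.25% of adherens-junction and 15.4% of desmosome genes, against 3.04% of all genes tested. Of all genes tested, 10.7% rose and 12.3% fell with the inhibitor, and 3.86% rose and 2.71% fell with the deletion. Of 15 pan-epithelial genes 13 fell with the inhibitor and 7 with the deletion, 0 rose and 0 were called in the difference, and both medians, -0.40 and -0.36, turned to 0.037 and 0.010 under epithelial scaling, which uses this list. Cdh1, E-cadherin, had effects of -0.37 ± 0.091 and -0.47 ± 0.097, both called, with a difference of 0.096 ± 0.13 (adjusted p = 0.775), and its inhibitor effect turned to 0.070 under that scaling. Of 28 tight-junction genes 15 fell and 2 rose with the inhibitor and 9 fell and 1 rose with the deletion, and 2 were lower in the difference: Cldn5 and the cytoplasmic scaffold gene Cgnl1, paracingulin. Cgnl1 was at 106, 107 and 123 CPM in FGFRi and 171 to 231 elsewhere. Here the difference was -0.75 ± 0.13 (adjusted p = 0.00624), a call lost without HOM 2 (adjusted p = 0.0648). Cldn4, a barrier claudin, fell by 0.54 ± 0.088 in HOM and changed by -0.18 ± 0.083 (adjusted p = 0.139) with the inhibitor, yet the difference was not called, 0.36 ± 0.12 (adjusted p = 0.130).

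Desmosome genes fell in 6 of 13 with the deletion and 5 with the inhibitor, 1 rose with the deletion, and 2 were higher in the difference. Perp, a tetraspan protein of desmosomes, was at 88.2 and 81.5 CPM in HOM, 136, 121, 107 and 103 in the 4 controls and 120.3 to 159 in the inhibitor experiment. The difference of its effects was 0.58 ± 0.13 (adjusted p = 0.0269). Dsc3, a desmosomal cadherin, differed by 1.84 ± 0.42 (adjusted p = 0.0328), and the calls of both were lost in 6 of 12 fits without 1 library. Adherens junction genes fell in 7 and rose in 3 of 16 with the inhibitor and fell in 4 and rose in 2 with the deletion, and the 1 called difference was the mesenchymal cadherin Cdh11, higher by 0.87 ± 0.19 (called in 8 of 12 fits). Of 20 genes of stratified epithelium 2 fell with the inhibitor and 5 with the deletion, with 0 called in the difference. Among all genes tested 12.3% fell and 10.7% rose with the inhibitor, and 2.71% fell and 3.86% rose with the deletion.

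Basal progenitor genes rose in 8 of 19 and fell in 2 with the inhibitor (median 0.41), where 10.7% and 12.3% of all genes did. With the deletion 2 rose and 3 fell (median -0.13), where 3.86% and 2.71% of all genes did. Called differences made up 10.5% of the list, against 3.04% of all genes tested. Lamb3, a chain of laminin 332 in the epithelial basement membrane, moved in opposite directions, from 21.3, 28.0 and 24.6 CPM in DMSO to 48.3, 39.0 and 33.9 in FGFRi and from 33.7, 37.5, 28.0 and 32.6 in the 4 controls to 16.6 and 17.1 in HOM. Its effects were 0.66 ± 0.13 and -0.96 ± 0.14, and the difference, 1.63 ± 0.19 (adjusted p = 2.95e-04), was kept in all 12 fits without 1 library. Pdpn, podoplanin, was the other gene higher in the difference, by 0.84 ± 0.17 (adjusted p = 0.0198), lost without FGFRi 1, WT 2, HOM 1 or HOM 2 (highest adjusted p = 0.112). The basal keratins Krt5 and Krt14 varied within groups, 22.9 to 194 CPM for Krt5 in DMSO and 82.8 and 14.8 in WT, and their differences of 2.14 ± 0.90 and 1.12 ± 0.50 were not called (adjusted p = 0.243 and 0.268), nor was that of the basal factor Trp63, 0.44 ± 0.17 (adjusted p = 0.180).

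Of the 27 genes with opposite effects, 17 kept the call of the difference in all 12 fits without 1 library, the highest share among the inhibitor, deletion, opposite and same-sign classes. Sema3b, a secreted semaphorin, was at 47.3, 52.0 and 36.6 CPM in FGFRi, 106, 83.1 and 83.1 in DMSO, 86.7, 89.6, 109 and 105 in the 4 controls and 166 and 173 in HOM. Neither pair of groups overlapped, and the difference was -1.82 ± 0.16 (adjusted p = 3.04e-05), from -1.01 ± 0.12 and 0.80 ± 0.11. Crispld2, a secreted cysteine-rich protein, was at 15.2, 12.2 and 6.09 CPM in FGFRi, 31.0, 21.4 and 36.0 in DMSO, 17.1, 19.1, 28.7 and 26.9 in the 4 controls and 79.3 and 87.0 in HOM, and its difference was -3.38 ± 0.33 (adjusted p = 4.43e-05). Arrdc3, an arrestin domain protein, the peroxide-degrading enzyme gene Cat and the growth factor gene Pdgfb went the other way, higher with the inhibitor and lower in HOM, with differences of 0.79 ± 0.12 (adjusted p = 0.00369), 1.02 ± 0.18 (adjusted p = 0.00855) and 1.72 ± 0.30 (adjusted p = 0.00680), each lost without HOM 2 (adjusted p = 0.0553, 0.0801 and 0.0801). Their falls in HOM alone were lost in 3, 7 and 4 of 12 fits. Eno1b, a near-identical copy of the glycolytic gene Eno1, had the smallest p of all, but its level was 0.0757 to 0.293 CPM in WT and HET, 23.9 and 23.1 in HOM and 54.9, 64.5 and 66.8 in DMSO, and reads may be shared with Eno1, so it is reported as uncertain.

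Notch signalling genes were lower in the difference in 3 of 17 and higher in 0 (17.6% called against 3.04% of all genes tested). With the inhibitor 3 rose and 4 fell, and with the deletion 2 rose and 1 fell (10.7%, 12.3%, 3.86% and 2.71% of all genes). Hey1, a Notch target, was at 3.49, 7.23 and 9.30 CPM in FGFRi, 24.7, 20.9 and 21.7 in DMSO, 16.9 and 17.1 in WT, 22.7 and 22.5 in HET, and in HOM 27.8 and 30.4. Its effects differed by -2.17 ± 0.25 (adjusted p = 2.00e-04). Its rise in HOM, 0.57, was lost in 8 of 12 fits without 1 library, while the difference was kept in all. The ligand gene Jag1 was at 51.2, 48.4 and 48.0 CPM in FGFRi and 76.4 to 111 elsewhere. This gave a difference of -0.99 ± 0.12 (adjusted p = 3.83e-04) with a deletion effect of -0.074 ± 0.086. The receptor gene Notch1 was at 159.8, 187 and 177 CPM and 248 to 322 elsewhere. The inhibitor effect minus the deletion effect was -0.80 ± 0.16 (adjusted p = 0.0138), lost without HOM 2 (adjusted p = 0.115). Hes1, another Notch target, had a difference of 0.20 ± 0.11 (adjusted p = 0.369).

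The EGF family, a second set of receptor tyrosine kinase ligands in the gland, had 1 gene higher (Btc, above) and 2 lower of 14 in the difference, with 2 higher and 5 lower with the inhibitor and 0 and 2 with the deletion. The lower genes were the neuregulins Nrg1, -0.62 ± 0.16 (adjusted p = 0.0474), and Nrg2, -0.94 ± 0.20 (adjusted p = 0.0232), lost in 11 and 3 of 12 fits without 1 library. Bone morphogenetic protein and Id genes rose in 6 of 18 with the inhibitor and in 2 with the deletion, 0 fell, and Bmp7 was lower in the difference at -0.57 ± 0.13 (called in 5 of 12 fits). Hedgehog genes rose in 5 and fell in 1 of 10 with the inhibitor and rose in 2 with the deletion, and Cdon, a co-receptor, was higher in the difference at 0.61 ± 0.15 (called in 3 of 12 fits). FoxO targets rose in 2 and fell in 6 of 19 with the inhibitor and fell in 2 with the deletion, with Sesn3 and Bcl6 higher and Eif4ebp1 lower in the difference, the last 2 at 0.76 ± 0.17 and -0.995 ± 0.16 (called in 7 and 11 of 12 fits). Macrophage and leukocyte genes rose in 1 and fell in 3 of 21 with the inhibitor, against 10.7% and 12.3% of all genes tested. With the deletion 1 rose (3.86% of all genes, with 2.71% lower). These shares of all genes also stand beside the EGF, bone morphogenetic protein, Hedgehog and FoxO counts. The 2 FoxO rises with the inhibitor were near theirs. Of the macrophage and leukocyte genes, Laptm5 and S100a9 were lower in the difference (called in 3 and 6 of 12 fits). S100a9 had 0 counts in a whole group, so no effect size is given for it. The summed list was at 199.6 CPM in DMSO 3, against 76.4 in DMSO 1 and 62.1 in DMSO 2. Called differences, 3.04% of all genes tested, made up 21.4%, 5.56% and 10% of the EGF, bone morphogenetic protein and Hedgehog lists. They made up 15.8% of the FoxO list and 9.52% of the macrophage and leukocyte list. Of 4 erythroid genes 1 rose in HOM, where the list summed to 16.7 to 17.1 CPM. It summed to 0.952 to 7.24 CPM in WT, 5.90 to 8.603 in HET, 0.676 to 5.09 in DMSO and 0.734 to 2.70 in FGFRi.

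**Figure D5:**
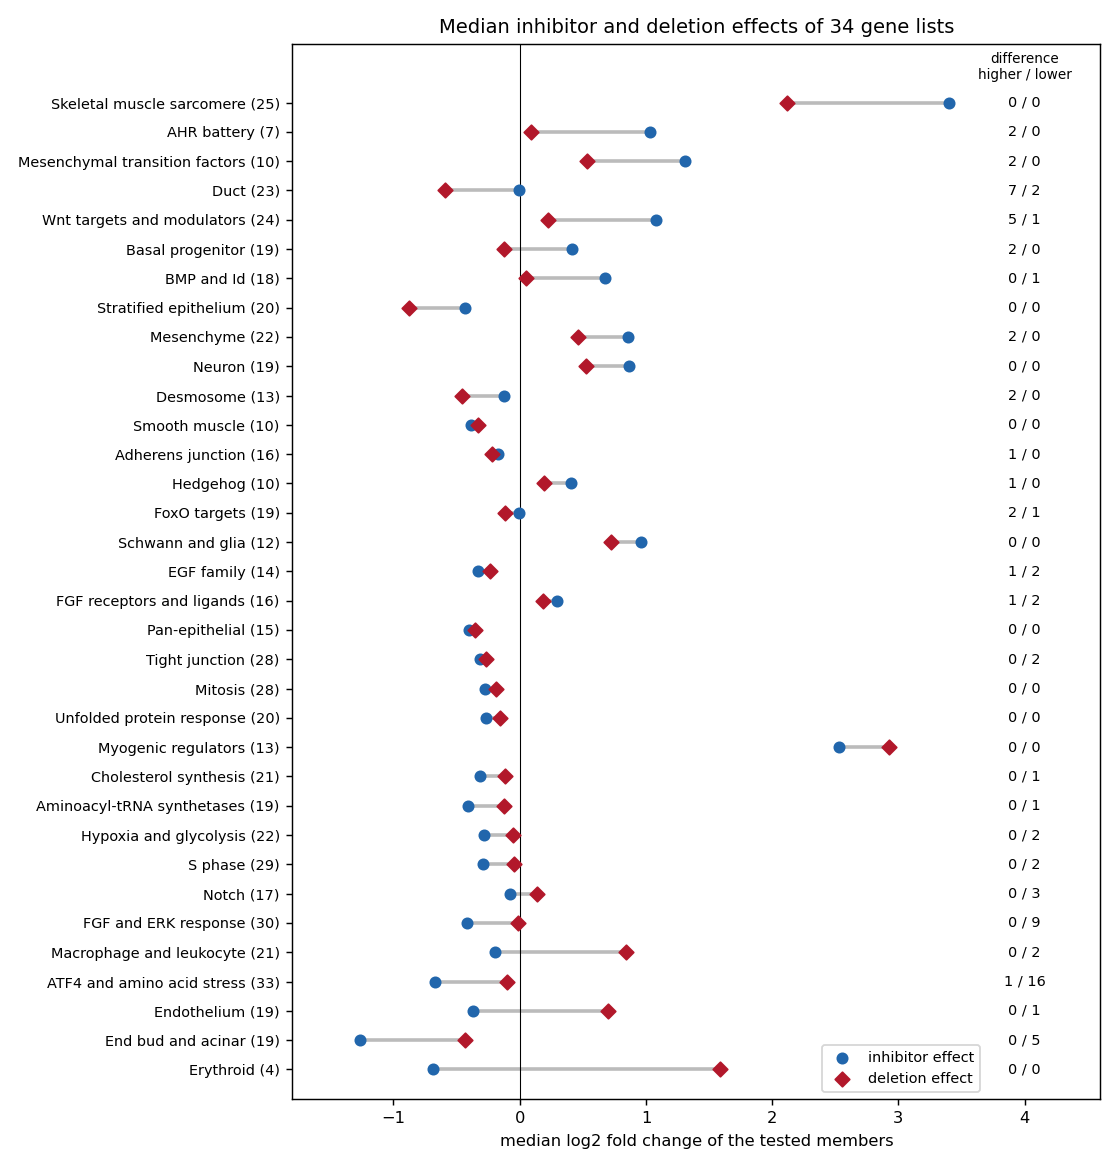
Median log2 fold change (x axis) of the tested members of 34 gene lists (y axis, number tested in brackets), circles for the inhibitor and diamonds for the deletion, sorted by the median difference, with the numbers of members called higher and lower in the difference at the right. The 2 medians nearly coincide in the pan-epithelial and tight-junction lists and lie apart in the end bud, duct and Wnt lists, and 1 higher and 16 lower genes stand beside the ATF4 list.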

How the data were processed

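RNA libraries from 12 cultures were analysed from the count table that the authors deposited, which holds whole-number counts of reads per gene with no normalization. Per the submitters' processing notes, bcl2fastq and STAR were used with the mouse build GRCm39, without versions. No source used here names the counting tool, its annotation or its strand setting, so overlapping and antisense genes cannot be separated. Per the labels' protocols, ribosomal RNA was depleted with NEBNext reagents. Library totals of 6043701 to 22322182 counts limit the precision of scarce genes, and no molecular identifiers were used, so limits on counts of 0 cover counting error only.

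Symbols, gene types and chromosomes came from GENCODE M21 (GRCm38), which matched 52489 of the 52636 identifiers, and members are protein-coding genes of chromosomes 1 to 19. edgeR 4.0.16 in R 4.3.3 fitted 1 coefficient per group over all 12 libraries (TMM, filterByExpr with a minimum count of 10 and a total of 15, quasi-likelihood F test), and p-values were adjusted by Benjamini-Hochberg over all 15859 genes that passed. CPM values are TMM-normalized. Errors of effects are SE. The biological coefficient of variation was 0.110, and the script was tested on simulated data. No 2 libraries of a group agreed within counting noise. The labels do not say that replicates came from separate embryos or litters, so p-values measure the spread between these libraries. Epithelial scaling sets each library by the pan-epithelial genes. Other alternatives were DESeq2 1.42.0, limma-voom (limma 3.58.1), other scalings and filters, each control genotype alone, a sex covariate, a minimum change and leaving out libraries.

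The members and gene lists were chosen with earlier results of these data known, and gene lists are described by counts and medians with no list test. Genes named by rule are those with a mean of at least 5 CPM in 1 group and the smallest p of the difference: 6 per direction of the inhibitor and deletion classes (without overlap between the libraries of the called effect), 4 per direction of the opposite class and 3 of the same-sign class, plus a panel of FGF and epithelial genes and up to 5 members per described list. Other named genes are called list members or were chosen after their values were seen. Of the described lists, 2 genes are not reported here by name. No library of the MEK inhibitor named in the protocol was analysed here.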

Additional observations from a re-analysis of the deposited data

Results flagged for a closer look

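The 4 WT and HET libraries, which together serve as the control of the deletion effect, were searched for a single library far from the others, over 106 named genes and 34 list sums, and 7 of these 140 had a gap to the nearest library whose share of the whole range passed Dixon's 95% critical value for 4 samples. Chance flags about 1 in 20 such sets, so 7 of 140 is near what chance gives, and groups of 2 or 3 libraries were not searched. HET 1 stood apart in 3 genes: Fgfr2 was at 86.2 CPM in HET 1, where the nearest of the others was at 99.2; Casz1 was at 40.4 CPM in HET 1, where the nearest of the others was at 48.0, and Notch3, a Notch receptor gene, was at 167 CPM in HET 1, where the nearest of the others was at 198. HET 2 stood apart in Adamtsl1, at 5.95 CPM in HET 2, where the nearest of the others was at 4.69, and in Gars, glycyl-tRNA synthetase, at 116 CPM in HET 2, where the nearest of the others was at 124. The summed aminoacyl-tRNA synthetase list was at 1972 CPM in HET 2, where the nearest of the others was at 2044. Eno1b was at 0.293 CPM in WT 1, where the nearest of the others was at 0.108, all of them close to 0.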

How the results depend on the processing

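The counts depend on the number of libraries and on the scaling; the cause was not tested beyond what each alternative changes by construction. Counts are given in the order of differences called higher and lower, inhibitor effects, deletion effects, and genes with the inhibitor or the deletion effect alone, for which the reported values were 197, 206, 3040, 871, 271 and 68. They were 62, 79, 1186, 571, 77 and 34 with libraries scaled by totals, 100, 100, 7723, 6673, 76 and 49 with epithelial scaling, 479, 431, 3019, 1320, 525 and 154 without a filter on low counts and 12, 19, 406, 24, 20 and 3 with a test for more than a 1.5-fold change. They were 109, 133, 3040, 1109, 140 and 66 with WT alone as control, 252, 186, 3040, 205, 341 and 44 with HET alone, 281, 124, 2022, 32, 239 and 18 with the sex covariate and, chosen after seeing the data, 128, 101, 2430, 522, 172 and 29 without DMSO 3 and WT 1. DESeq2 gave 282, 246, 2554, 892, 344 and 84 and limma-voom 207, 223, 3150, 1155, 283 and 76. Leaving out 1 library in turn gave 25 to 262 higher and 40 to 249 lower differences, 1787 to 3043 inhibitor effects, 122 to 1054 deletion effects, 48 to 348 genes with the inhibitor effect alone and 5 to 80 with the deletion effect alone. Of the 403 genes with a called difference, 371 stayed called with limma-voom, 363 with DESeq2, 289 against HET alone, 211 with the sex covariate, 206 against WT alone, 198 with epithelial scaling, 106 with totals and 31 with the minimum change. Epithelial scaling moved the median of all genes by 0.44 in the inhibitor effect, 0.37 in the deletion effect and 0.07 in the difference, and totals moved the deletion by 0.15 and the difference by -0.13. Same-numbered libraries did not deviate together. Their r was -0.16, -0.12 and -0.07 for DMSO with FGFRi, -0.22 for WT with HOM and -0.16 for WT with HET. With 2 or 3 libraries per group these values cannot show whether the numbers pair the samples. The fit with a replicate block gave 128, 118, 2666, 711, 159 and 36. With the WT numbers crossed, a pairing chosen after seeing the data, the block gave 163, 163, 2888, 762, 212 and 49.

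Epithelial scaling turned 11 effects of named genes that had been called to uncalled values of the other sign. These were the inhibitor effects of Cdh1, Dusp6, Fgfr2, Pkp2, Spry1, Spry2, Spry4 and Yars, which turned to 0.070, 0.020, 0.13, 0.098, 0.065, 0.12, 0.046 and 0.017, from -0.37, -0.42, -0.31, -0.33, -0.38, -0.31, -0.40 and -0.42. The deletion effects of Hes1, Sox9 and Wwc1 turned from -0.28, -0.36 and -0.34 to 0.089, 0.0058 and 0.027. The difference of Cdh1 turned to -0.021 with totals and -0.016 against HET alone, and that of Ahr to -0.0094 against HET alone. The uncalled difference of Fgf7 turned to 0.19 against HET alone, 0.038 without DMSO 3 and WT 1, and 0.058, 0.11, 0.083, 0.064 and 0.12 without DMSO 2, FGFRi 2, WT 1, HET 2 and HOM 1, with -0.29 without HOM 2 as the lowest of these fits. None of the 70 called differences of named genes changed direction in the alternatives run.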

Other observations

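The genes of this section were chosen after their values were seen. Collagen genes, which build the matrix around ducts and buds, split in the difference. Of 40 tested, 6 were higher and 7 lower, against 1.49% and 1.55% of all genes tested. With the inhibitor 20 rose and 7 fell (10.7% and 12.3% of all genes). With the deletion 13 rose and 1 fell (3.86% and 2.71%). Col2a1, a cartilage collagen, was at 4.30, 2.13 and 1.48 CPM in DMSO, 0.550, 0.756 and 0.719 in FGFRi, 18.4, 15.1, 8.48 and 7.96 in WT and HET and 26.5 and 34.4 in HOM, lowest in FGFRi and highest in HOM, with a difference of -3.20 ± 0.41 (adjusted p = 6.57e-04). The basement membrane chains Col4a1 and Col4a2 differed by -0.76 ± 0.18 (adjusted p = 0.0344) and -0.82 ± 0.17 (adjusted p = 0.0198), and were called in 4 and 9 of 12 fits without 1 library. Col6a6, a chain of collagen VI, was at 48.2, 49.1 and 46.6 CPM in DMSO, 103, 90.1 and 83.6 in FGFRi, 34.4, 46.4, 38.8 and 40.4 in WT and HET and 37.7 and 38.1 in HOM and differed by 1.002 ± 0.15 (adjusted p = 0.00265). Of 11 laminin genes Lamb3 was higher and Lama4 lower. Lama4 was at 95.2, 79.2 and 74.7 CPM in DMSO and 71.4, 60.9 and 61.5 in FGFRi. In the cross it was at 77.0, 83.1, 95.9 and 90.5 CPM in WT and HET and 120.4 and 112 in HOM. Col2a1, Col6a6 and Lama4 were called in 12 of 12 fits without 1 library.

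Replication-dependent histone genes, whose many copies share reads and which lack poly(A) tails, were lower in the difference in 13 of 56. None were higher, against 1.55% lower and 1.49% higher among all genes tested. With the inhibitor 37 fell, and with the deletion 9 rose and 3 fell (12.3%, 3.86% and 2.71% of all genes). Ribosomal protein genes fell in 48 of 83 with the inhibitor and in 1 with the deletion (12.3% and 2.71% of all genes tested). None rose. In the difference 3 (Rpl27, Rpl35 and Rps16) were lower, where 3.04% of all genes tested had a called difference. Those 3 were called in 6, 3 and 3 of 12 fits without 1 library.

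Further genes with opposite effects kept a called difference in all 12 fits without 1 library. Itga9, an integrin subunit, was at 51.9, 42.9 and 42.9 CPM in DMSO, 30.5, 34.4 and 29.4 in FGFRi, 63.5, 64.0, 56.2 and 60.0 in WT and HET and 90.9 and 97.6 in HOM, with a difference of -1.17 ± 0.13 (adjusted p = 1.78e-04). Hmga2, a chromatin protein of embryonic tissue, was at 9.55, 8.69 and 9.03 CPM in DMSO, 4.77, 4.75 and 4.92 in FGFRi, 8.20, 7.89, 7.12 and 7.24 in WT and HET and 13.8 and 12.3 in HOM, a difference of -1.68 ± 0.19 (adjusted p = 2.00e-04). Lcn2, lipocalin 2, which binds siderophores, was at 12.1, 10.09 and 15.8 CPM in DMSO, 2.57, 3.13 and 3.65 in FGFRi, 5.79, 9.51, 9.39 and 6.83 in WT and HET and 13.7 and 13.7 in HOM, a difference of -2.73 ± 0.31 (adjusted p = 2.00e-04), and its HOM libraries lay within the range of DMSO. Plod1, a lysyl hydroxylase of collagens, was at 30.9, 31.1 and 28.7 CPM in DMSO, 20.7, 24.0 and 22.96 in FGFRi, 20.9, 19.3, 22.6 and 25.6 in WT and HET and 33.2 and 37.5 in HOM, a difference of -1.10 ± 0.13 (adjusted p = 4.03e-04).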
